A study of Mus musculus with 6 samples.

Results

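Genes of the retinal pigment epithelium (RPE) and of the visual cycle were followed through RNA-seq of mouse retina after optic nerve crush (ONC). The group holds 9 genes of the 35485 in the deposited tables, namely Rpe65, Lrat, Rlbp1, Rdh5, Best1, Ttr, Stra6, Tyrp1 and Pmel. They were taken by symbol from a written list and not by a rule on their values. The list was chosen with earlier results of these data known. All 9 were found and all 9 passed the filter on low values (a group mean over 0.3 RPKM in sham, ONC or both), which left 13670 genes to test, and Best1 passed it through the ONC group alone. RPKM is the number of exon reads per kilobase of exon, scaled to the reads mapped to genes. The mice were wild type C57BL/6 animals of 12 weeks. In the ONC group the optic nerve was crushed 2 mm behind the globe for 10 seconds, and in the sham group the nerve was exposed and not crushed. Whole retinas were taken 2 days after surgery, and each of the 3 ONC and 3 sham samples combined RNA of 6 retinas from 6 mice, so the spread between samples is a spread between pools and not between single animals.

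The RPE is a pigmented single layer of cells behind the photoreceptors, outside the neural retina. It takes up retinol, joins it to a fatty acid, turns the ester into 11-cis-retinol, oxidizes this to 11-cis-retinal and returns it to the rods and cones, where light turns it into the all-trans form. This loop is the visual cycle. Rlbp1 encodes CRALBP, a carrier of 11-cis retinoids that is made by the RPE and also by Muller glia, the main glial cells of the neural retina. A dissected retina can carry some RPE with it, because the tips of the photoreceptors are wrapped by the processes of RPE cells.

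MITF is a transcription factor of pigment cells that binds CATGTG, and OTX2 and CRX, factors of the RPE and of photoreceptors, bind TAATCC. The 250 bases before the start of each gene in RefSeq (GRCm38.p6) were searched for these letters on both strands. Windows were at hand for 7 of the 9 genes, 10 windows in all, with Pmel and Ttr not included. The stretches of 30 bases below were chosen because they come from the gene that varied most between pools of those with more than 100 reads in every sample (Rpe65), the gene that varied least (Rlbp1) and the gene with the lowest p-value (Tyrp1). They are written 5′ to 3′ on the strand of the gene, with the searched letters or their reverse complement in capitals.
Rpe65, chr3:159598931-159598960, plus strand: catggcaggccCACATGgctcttttttatc
Rpe65, chr3:159599127-159599156, plus strand: ctcctccaataaGGATTAgattgcatacaa
Rlbp1, chr7:79387134-79387163, minus strand: atttccctctgcCACATGggacagtggacc
Tyrp1, chr4:80834155-80834184, plus strand: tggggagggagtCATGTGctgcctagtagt
The capitals begin 239 and 42 bases before the start of Rpe65, 124 before that of Rlbp1 and 46 before that of Tyrp1. The TAATCC letters were also found 227 bases before the start of Best1, and neither motif was found in the windows of Lrat, Rdh5 and Stra6. The palindrome CACGTG, another form of the sequence bound by MITF, was in none of the 10 windows. Of 32817 windows of all genes, 12.3% held CATGTG, 6.25% held TAATCC and 6.02% held CACGTG on either strand, so such letters are common and mark no site by themselves. RefSeq gene records of Rpe65, Rlbp1 and Tyrp1 begin further upstream than the starts used here, so other transcripts may cover parts of these stretches.

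Exon reads per sample numbered from 17343945 to 18349331 in the sham group and from 20019818 to 20358008 in the ONC group. Reads on introns made up 19.6% to 29.1% of all reads on genes, with the highest share in sham replicate 3. Samples were compared by exon reads, TMM-scaled, in the quasi-likelihood test of edgeR, with Benjamini-Hochberg adjustment over all 13670 genes. Genes with an FDR under 0.1 and a fold change (FC) above 1.5 counted as differentially expressed genes (DEGs). CPM below stands for exon reads per 1000000 after TMM scaling, and each log2 FC is ONC over sham with its standard error (SE).

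None of the 9 genes was a DEG. The test called 0 of them higher and 0 lower, while 0.827% of tested genes were called higher and 0.834% lower, and a count of 0 among 9 genes is not apart from that background. With the FDR alone the shares were 2.38% and 3.72%, and the count among the 9 was again 0. At an unadjusted p under 0.05 there was 1 gene, Tyrp1, against 16.7% of all tested genes. The DESeq2 Wald test also called 0, with 1 gene under that unadjusted p, and limma on log2(RPKM + 0.1) called 0, with 0 under it. The log2 FC was below 0 for 8 of the 9 genes, compared with 47.7% of tested genes, and its median over the 9 was -0.28, compared with 0.0099 over all tested genes. Of the 8, Rlbp1 (-0.0006) and Lrat (-0.02) were near 0, and each changed sign in 10 of the alternative settings. Best1, the gene above 0, passed the RPKM filter through the ONC group alone, so its mean RPKM had to be higher there. Several of the 9 varied together between pools, as described below, so these counts are not 9 separate observations. In whole tissue, fewer cells of a type and less RNA per cell cannot be told apart.

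**Figure D1:**
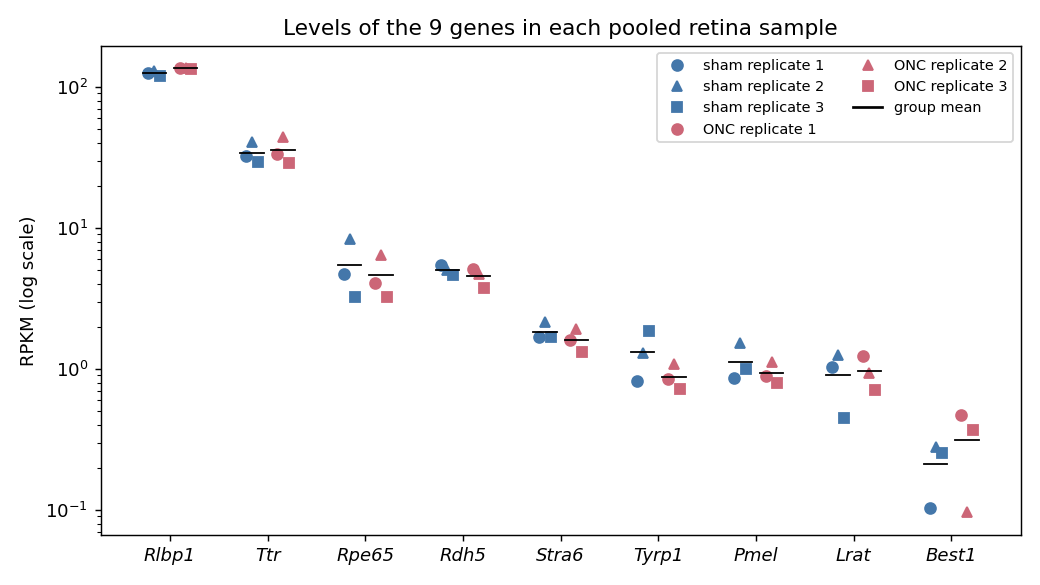
RPKM of each gene on a log axis, with genes in order of their mean level. Blue symbols are sham samples, red symbols are ONC samples, the shape gives the replicate number and black lines are group means (n = 3). Rlbp1 lies near 130 RPKM with all samples close together, and Rpe65 and Ttr stand highest in replicate 2 of both groups.

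The levels spanned a wide range. In mean RPKM over the 6 samples the order was Rlbp1, Ttr, Rpe65, Rdh5, Stra6, Tyrp1, Pmel, Lrat and Best1. The lowest sample of Rlbp1 (119.1) was above the highest of Ttr (44.5), the lowest of Ttr (28.7) was above the highest of Rpe65 (8.34), and the lowest of Rdh5 (3.73) was above the highest of Stra6 (2.15). The other neighbours in this order overlapped in their ranges. Within samples, Lrat was above Best1 in 6 of 6 and Stra6 above Tyrp1 in 5 of 6, while Pmel was above Lrat in 4, Rpe65 above Rdh5 in 2 and Tyrp1 above Pmel in 1.

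Rpe65, on chromosome 3 from 159599181 to 159625307 with 15 exons, encodes the isomerase that makes 11-cis-retinol from retinyl esters, the step that defines the RPE cycle. Exon reads were 201, 368 and 147 in the sham group and 191, 296 and 156 in the ONC group, in the order of the replicate numbers 1, 2 and 3, as in all lists of values below. Replicate 2 was the highest of its group on both sides, and the groups overlapped. In RPKM the sham samples stood at 4.74, 8.34 and 3.26 (5.45 ± 2.61, SD, n = 3), and the ONC samples at 4.10, 6.45 and 3.26 (4.60 ± 1.66, SD, n = 3). The log2 FC was -0.36 (SE 0.25, 95% interval -0.88 to 0.17, edgeR adjusted p = 0.506), so a fold between 0.543 and 1.12 was within the error. All exon reads of the gene were uniquely mapped and 90.2% crossed an exon junction, compared with 42.0% to 43.1% of all exon reads in these libraries, so the counts come from spliced RNA. Within the sham group the highest CPM was 2.34 times the lowest. The SD of log2 CPM within groups was 0.554, which was 5.78 times the SD that counting alone would give and larger than that of 98.6% of the 11806 tested genes with a mean RPKM above 1. The sign of the difference rested on sham replicate 2, since without it the log2 FC was 0.062 (edgeR adjusted p = 0.942).

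Lrat encodes the acyltransferase that makes the retinyl esters on which RPE65 acts. It lies on chromosome 3 from 82892582 to 82903974, within the span of the non-coding gene 4930564K09Rik. Total exon reads were 126, 161 and 59 in the sham samples and 168, 125 and 99 in the ONC samples, but uniquely mapped exon reads were 6, 12 and 11 in sham and 6, 2 and 4 in ONC. Unique reads thus made up 5.56% of the total, and 111 of the 13670 tested genes (0.812%) had a share under 10%. Reads across an exon junction numbered 7, 12 and 11 in sham and 6, 2 and 3 in ONC, close to the unique reads in each sample. The total counts of the groups overlapped (log2 FC -0.02, SE 0.28, edgeR adjusted p = 0.978). The unique counts were lower in the ONC group, with 1 tie, at a log2 FC of -1.46 that did not pass the test (edgeR adjusted p = 0.361). Where the other reads map as well is not given in the tables, so the RPKM of Lrat, 0.451 to 1.26, is uncertain as a level of this gene.

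**Figure D2:**
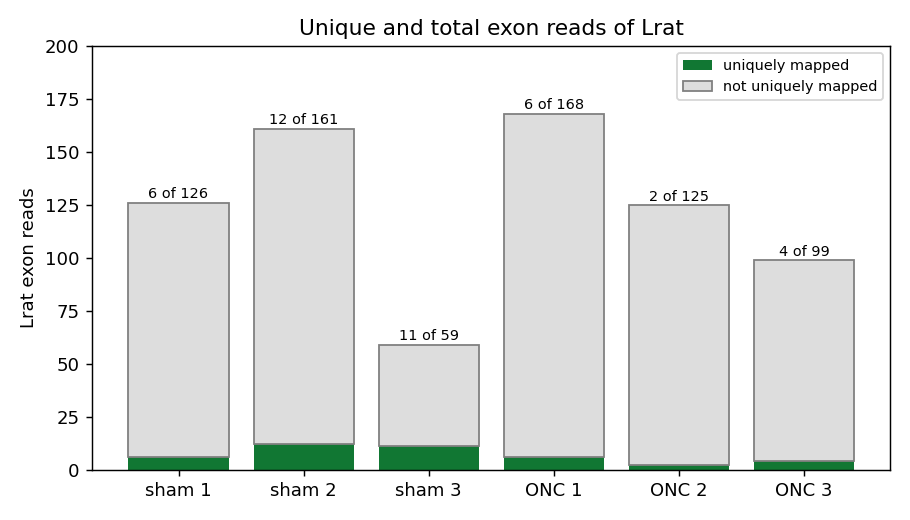
Exon reads of Lrat in each of the 6 samples. Green is the uniquely mapped part and grey the rest, and the label on each bar gives unique of total reads, from 2 of 125 in ONC replicate 2 to 12 of 161 in sham replicate 2.

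Rdh5 encodes an 11-cis-retinol dehydrogenase of the RPE, which makes 11-cis-retinal. It lies on chromosome 10 from 128913590 to 128919297, between Cd63, which ends 768 bases away, and Bloc1s1, which begins 617 bases away. Exon reads were 158, 153 and 144 in sham and 164, 148 and 122 in ONC. The CPM was 9.05, 8.41 and 8.48 in sham and 8.28, 7.23 and 5.87 in ONC, so the groups did not overlap, the only such case among the 9 genes, while 21.8% of tested genes had groups apart in CPM. The log2 FC of -0.28 (SE 0.18, 95% interval -0.66 to 0.10) did not pass the test (edgeR adjusted p = 0.468), and in RPKM the groups overlapped. Reads on introns made up 24.4% of the reads on this gene, against 9.34% for Rpe65.

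Rlbp1, on chromosome 7 from 79374870 to 79387027, was the most abundant of the 9 and had the same mean CPM in both groups. It had 6327, 6876 and 6423 exon reads in sham and 7575, 7458 and 7726 in ONC. Scaled to CPM the sham samples were 362, 378 and 378 (373 ± 9.14, SD, n = 3). The ONC samples were 382, 364 and 372 (373 ± 9.21, SD, n = 3), and the ranges overlapped in part. The log2 FC was -0.0006 (SE 0.05, 95% interval -0.11 to 0.11, edgeR adjusted p = 0.997), so the interval of the fold ran from 0.924 to 1.08. In RPKM the groups were apart, at 124.9, 130.3 and 119.1 in sham and 135.9, 136.0 and 135.2 in ONC. RPKM counts reads on introns in its divisor, and with that scaling the median log2 FC of all genes was 0.131, beside 0.12 for Rlbp1 (edgeR adjusted p = 0.264). The SD of log2 CPM within groups was 0.0356, lower than in all but 2.29% of tested genes and 2.07 times the SD from counting. Genes with many reads have less counting error, which bears on that rank.

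Muller glia markers can be set beside Rlbp1, because both cell types make it. Of 16 listed Muller genes, 16 were tested and 0 were called in either direction, with a median log2 FC of -0.0016. There were 3 of them at an unadjusted p under 0.05, and the DESeq2 Wald test called 0. Glul, the glutamine synthetase of Muller cells, was at 511.9 to 591.8 RPKM in sham and 537.4 to 574.4 in ONC (log2 FC -0.13, SE 0.05, edgeR adjusted p = 0.206). Apoe, a lipid carrier that these cells secrete, had 233.7 to 249.5 RPKM in sham and 242.6 to 295.0 in ONC (log2 FC 0.06, SE 0.06, edgeR adjusted p = 0.705). The summed RPKM of the list was 1450 to 1616 in sham and 1642 to 1696 in ONC, groups that lie apart on the RPKM scale as those of Rlbp1 do.

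The ratio of Rlbp1 to Rpe65, each per kilobase of exon, shows how unequally the pools held the 2 transcripts. It was 26.2, 15.6 and 36.3 in the sham samples and 33.0, 21.0 and 41.2 in the ONC samples. Both samples numbered 2 were the lowest of their group and both samples numbered 3 the highest. Since Rlbp1 varied little between samples, the ratio mostly repeats the values of Rpe65 turned around and is not a further result. On the log2 scale the ratio was 4.62 ± 0.615 in sham and 4.93 ± 0.495 in ONC (SD, n = 3), a difference of 0.31 with p = 0.6 in a two-sided exact permutation test, whose smallest possible p is 0.1. Without sham replicate 2 the difference was -0.0133.

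Ttr and Stra6 belong to the transport of retinol. Transthyretin, encoded by Ttr on chromosome 18 from 20665250 to 20674326, carries thyroxine and the retinol-binding protein RBP4 and is made by the RPE. Its exon reads were 908, 1194 and 883 in sham and 1039, 1352 and 910 in ONC. Replicate 2 was again the highest of each group and the groups overlapped. In RPKM it stood at 34.2 ± 5.87 in sham and 35.6 ± 8.07 in ONC (SD, n = 3). The log2 FC was -0.07 (SE 0.12, 95% interval -0.32 to 0.19, edgeR adjusted p = 0.831), and its sign turned without sham replicate 2 (0.0565) or without ONC replicate 3 (0.0616). The within-group SD of Ttr was 5.63 times that of counting.

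Stra6, on chromosome 9 from 58129088 to 58153997, encodes the receptor through which RPE cells take retinol from RBP4. Exon reads were 141, 188 and 150 in sham and 147, 173 and 124 in ONC, with replicate 2 highest in both groups. The RPKM was 1.84 ± 0.272 in sham and 1.61 ± 0.299 in ONC (SD, n = 3). The log2 FC of -0.32 (SE 0.19, 95% interval -0.71 to 0.07) did not pass the test (edgeR adjusted p = 0.404).

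Best1 encodes bestrophin-1, an anion channel of the basolateral RPE membrane. The gene lies on chromosome 19 from 9985172 to 10001633, at a distance of 80 bases from Fth1. It was the least abundant of the 9, with 5, 14 and 13 exon reads in sham and 25, 5 and 20 in ONC. Junction reads were 0, 5 and 7 in sham and 0, 5 and 10 in ONC, so the 25 reads of ONC replicate 1, the highest count, held no spliced read. The log2 FC of 0.43 (SE 0.65, 95% interval -0.92 to 1.78, edgeR adjusted p = 0.793) spans folds from 0.528 to 3.44. Best1 passed the RPKM filter through the ONC group alone (means of 0.213 in sham and 0.313 in ONC), so its mean RPKM had to be higher in ONC. The SD of log2 CPM within groups was 1.01, which was 2.60 times the SD from counting. Without ONC replicate 1 the log2 FC was -0.0076. Fth1, the neighbour, encodes a ferritin chain and had 9513 to 10766 exon reads per sample, and whether any of its reads were counted for Best1 was not tested.

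Tyrp1 and Pmel belong to melanin and its organelle. Tyrp1, on chromosome 4 from 80834230 to 80851718, encodes an enzyme of melanin synthesis. Its exon reads were 51, 84 and 123 in sham and 58, 73 and 51 in ONC. Sham replicate 3 was the highest sample, and sham replicate 1 lay within the ONC range. The RPKM was 1.32 ± 0.517 in sham and 0.881 ± 0.181 in ONC (SD, n = 3). The log2 FC of -0.72 (SE 0.31, 95% interval -1.38 to -0.07) was the largest drop among the 9 in size, but it did not pass the test (edgeR unadjusted p = 0.0320, adjusted p = 0.241). The call rested on the choice of pools: without sham replicate 1 the log2 FC was -0.99 (edgeR adjusted p = 0.0890), which would make Tyrp1 a DEG, and without sham replicate 3 it was -0.34 (edgeR adjusted p = 0.716). Sham replicate 3 also had the highest share of intron reads over all genes, and the part of that in the value of Tyrp1 was not tested.

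Pmel encodes the protein of the fibrils on which melanin is laid down. It lies on chromosome 10 from 128706258 to 128720238, and its end overlaps that of Dgka. Exon reads were 42, 78 and 52 in sham and 48, 59 and 44 in ONC, with replicate 2 highest in both groups. The log2 FC was -0.40 (SE 0.32, 95% interval -1.06 to 0.27, edgeR adjusted p = 0.568). Reads of Pmel and Dgka cannot be told apart where the genes overlap, since no source states that strand was used in counting. Of its exon reads, 70.3% crossed a junction.

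**Figure D3:**
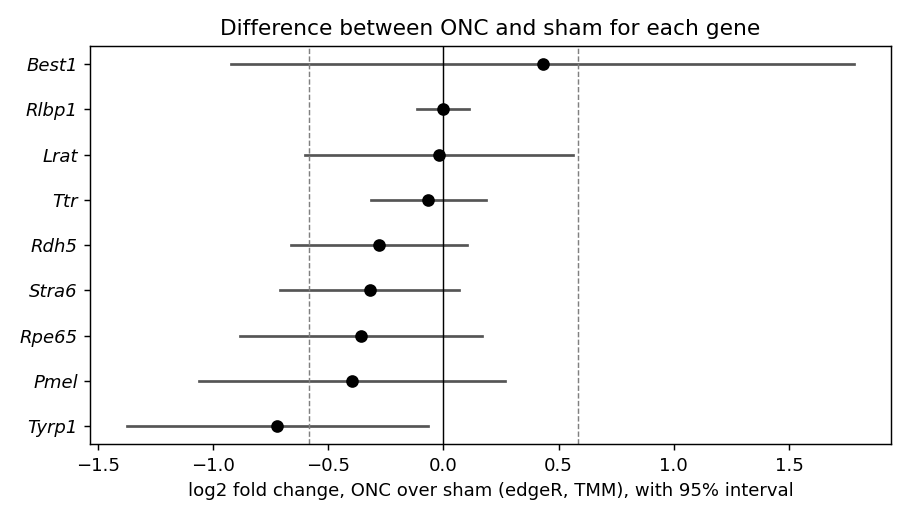
Log2 FC of ONC over sham for the 9 genes (points) with 95% intervals (lines). Dashed lines mark a fold of 1.5 in either direction. The interval of Rlbp1 is the narrowest, from -0.11 to 0.11, that of Best1 the widest, and that of Tyrp1 alone excludes 0 before adjustment over all genes.

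For each of the 9 genes the CPM differed more between the pools of at least one group than between the group means. The share of all tested genes for which this holds was not computed, so it cannot be read as a trait of these genes. Rpe65, Ttr, Stra6 and Pmel, 4 of the 9, were highest in replicate 2 in both the sham and the ONC group in CPM, a pattern noticed after the values were seen. It was found in 1444 of all tested genes (10.6%). Replicate numbers shared by the groups mark no common animal or day in the labels, and across all genes same-numbered samples did not deviate together (correlations of deviations -0.048, -0.044 and -0.016 for numbers 1, 2 and 3). With both samples numbered 2 left out, a setting chosen after seeing the data, the log2 FC was -0.24 for Rpe65, -0.11 for Ttr, -0.34 for Stra6 and -0.27 for Pmel, and none was called.

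Genes that were not members shared the same profile in part. Rgr, an opsin of RPE and Muller cells that also handles retinal, was at 14.7, 21.6 and 14.2 RPKM in sham and 16.3, 19.1 and 12.0 in ONC. Slc16a8, the lactate transporter of the RPE, was at 1.92, 2.91 and 2.17 in sham and 2.18, 2.49 and 1.89 in ONC. Both were highest in replicate 2 of each group, like Rpe65, and both are named here because of their values. Among 15 listed genes of the pigment epithelium, 4 of the 14 tested had this pattern (Slc16a8, Krt8, Efemp1 and Enpp2), as did 2 of 22 tested retinoid genes, 1 of 16 Muller genes and 2 of 16 rod and cone genes. In the melanin list it was 0 of 9, and in the lists of ciliary epithelium, choroid and sclera, and lens 0 of 3, 0 of 3 and 0 of 4.

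Tyrp1 did not share it in the sham group. Dct, the tautomerase that acts before it in the same melanin pathway, was at 3.40, 4.32 and 5.43 RPKM in sham and 3.28, 3.84 and 2.76 in ONC (log2 FC -0.55, SE 0.19, edgeR adjusted p = 0.120). Like Tyrp1 it was highest in sham replicate 3, and in the ONC group both were highest in replicate 2. Tyr, the first enzyme of melanin synthesis, had low levels, at 0.210, 0.240 and 0.371 RPKM in sham and 0.382, 0.389 and 0.256 in ONC (log2 FC 0.19, SE 0.45, edgeR adjusted p = 0.878).

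**Figure D4:**
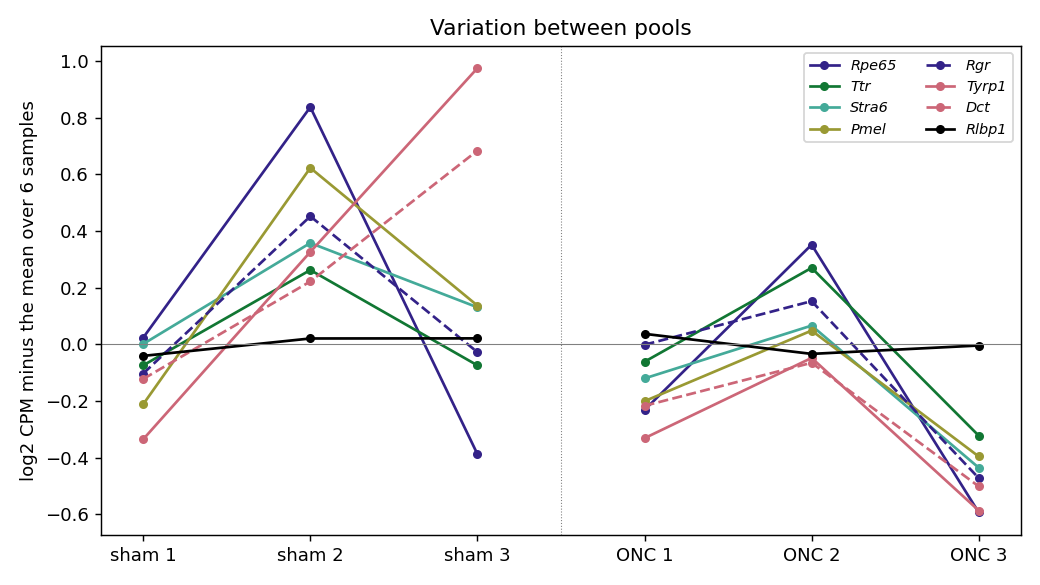
Log2 CPM of 8 genes in each sample, minus the mean of that gene over the 6 samples. Lines join the values of one gene within a group and imply no order of the replicates. Rpe65, Ttr, Stra6, Pmel and Rgr peak in replicate 2 of both groups, Tyrp1 and Dct peak in sham replicate 3, and Rlbp1 stays near 0.

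The genes whose profile was nearest to that of 3 members were taken from 11799 genes outside the group with a mean RPKM above 1, by the root mean square (RMS) difference of mean-centred log2 CPM over 6 samples. For Rpe65, whose own RMS deviation was 0.479, the nearest were Gm9769 (0.173), 4930529M08Rik (0.202) and Uap1l1 (0.230). Rgr would rank 6 at 0.258, and the members Pmel and Ttr would rank 17 and 24. Rlbp1 would rank 4816 and Tyrp1 11055. The difference for Rlbp1 (0.483) was near the RMS deviation of Rpe65 itself, as for any gene that hardly varies. For Ttr, whose own RMS deviation was 0.208, the nearest were Ints9 (0.069), Il17ra (0.077) and Sh3kbp1 (0.079). From the side of Ttr, Rgr would rank 35 and Stra6 79, while Pmel would rank 2615, Rdh5 4595 and Rpe65 9243. The RMS difference between Rpe65 and Ttr was the same from either side (0.301), and only the rank differed. It was smaller than the RMS deviation of Rpe65 itself and larger than that of Ttr. For Rlbp1 the nearest were Sec63 (0.010), Crk (0.014) and Ubac2 (0.016). With 6 samples, many unrelated genes come close to any profile.

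The wider gene lists held 3 DEGs, all higher after ONC, and the counts below stand beside 0.827% of tested genes called higher and 0.834% called lower. In retinoid handling, 1 of 22 tested genes (25 listed) was called higher and 0 lower, with a median log2 FC of 0.09. That gene was Crabp2, a carrier of retinoic acid inside cells, at 1.93, 1.62 and 0.636 RPKM in sham and 4.35, 3.80 and 2.18 in ONC (log2 FC 1.19, SE 0.38, edgeR adjusted p = 0.0896). Its lowest ONC sample was above its highest sham sample, but the call was lost on leaving out any of 4 samples (edgeR adjusted p = 0.203 without sham replicate 2, 0.323 without sham replicate 3, 0.140 without ONC replicate 1 and 0.256 without ONC replicate 2). It was also lost with total gene reads (edgeR adjusted p = 0.187), with limma on log2(RPKM + 0.1) (adjusted p = 0.196) and with both samples numbered 2 left out (edgeR adjusted p = 0.431). The most abundant genes of the list are known from photoreceptors. Rbp3, the retinoid carrier of the space between photoreceptors and RPE, had 981.5 to 1069.9 RPKM in sham and 1047.9 to 1227.6 in ONC (log2 FC 0.005, SE 0.07, edgeR adjusted p = 0.976). Rdh12, a retinal reductase of photoreceptors, had 207.6 to 212.4 in sham and 237.5 to 259.4 in ONC (log2 FC 0.10, SE 0.06, edgeR adjusted p = 0.400).

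Among the 14 tested genes of the pigment epithelium list, 1 was called higher and 0 lower, and the median log2 FC was -0.08. The DEG was Serpinf1, which encodes the secreted factor PEDF, at 1.66, 1.51 and 0.984 RPKM in sham and 3.23, 3.71 and 3.38 in ONC (log2 FC 1.20, SE 0.24, edgeR adjusted p = 0.00608). All ONC samples were above all sham samples. It stayed called without any single sample, with edgeR adjusted p between 0.0033 and 0.0491, but not with both samples numbered 2 left out (edgeR adjusted p = 0.104). Krt18, an epithelial keratin, was at 20.8, 24.9 and 23.2 RPKM in sham and 35.9, 35.8 and 36.2 in ONC, and passed the FDR threshold but not that of fold (log2 FC 0.52, SE 0.09, edgeR adjusted p = 8.14e-04). With the scaling of RPKM, under which the median log2 FC of all genes was 0.131, the log2 FC of Krt18 was 0.65 and both thresholds were passed, as they were with limma on log2 RPKM (0.65 and 0.63). Its partner keratin Krt8 stood at 0.181 to 0.694 in sham and 0.214 to 0.401 in ONC, with a log2 FC of -0.61 (SE 0.59, edgeR adjusted p = 0.647), having passed the RPKM filter through the sham group alone. Gas6, a ligand of the receptor MERTK that RPE cells use to take up shed photoreceptor tips, had 56.7 to 63.0 RPKM in sham and 66.9 to 71.8 in ONC (log2 FC 0.10, SE 0.06, edgeR adjusted p = 0.427). Mertk itself had 1.33 to 1.46 in sham and 1.62 to 2.01 in ONC (log2 FC 0.25, SE 0.18, edgeR adjusted p = 0.529).

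Of the 12 listed genes of melanin and melanosomes, 9 were tested, 1 was called higher and 0 lower, and the median log2 FC was 0.11. Gpnmb, a glycoprotein of melanosomes that macrophages and microglia also make, was at 2.89, 2.07 and 1.94 RPKM in sham and 3.67, 3.98 and 3.74 in ONC (log2 FC 0.61, SE 0.14, edgeR adjusted p = 0.0192). The groups did not overlap, but without sham replicate 2 or 3 its edgeR adjusted p was 0.128 or 0.125. The call was also lost with both samples numbered 2 left out (edgeR adjusted p = 0.327), with limma on log2(RPKM + 0.1) (adjusted p = 0.119), and with limma on log2(RPKM + 1), where the log2 FC of 0.55 was under the fold threshold. Slc24a5, a cation exchanger of melanosomes, had 9.65 to 12.4 RPKM in sham and 11.8 to 14.7 in ONC (log2 FC 0.11, SE 0.11, edgeR adjusted p = 0.674), with 29.3% of its exon reads uniquely mapped. Oca2, a melanosome transporter named for its value, had 0.157 to 0.642 RPKM in sham and 0.090 to 0.210 in ONC, with a log2 FC of -1.61 (SE 0.54, edgeR adjusted p = 0.116). Oca2 passed the RPKM filter through the sham group alone and so had to be lower in ONC, and Tyr passed it through the ONC group alone.

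**Figure D5:**
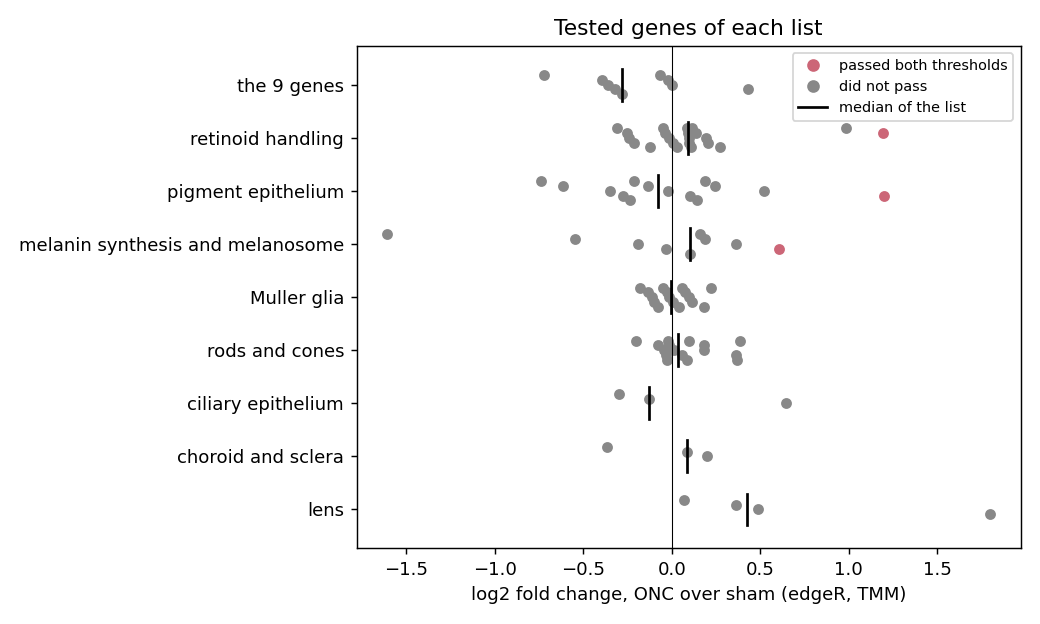
Log2 FC of ONC over sham for every tested gene of the 9 and of 8 lists, with the median of each list as a black line. Red points are the 3 DEGs (Crabp2, Serpinf1 and Gpnmb), and none of the 9 genes is among them.

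Markers of other tissues that a dissected retina could carry had mean levels over the 6 samples of at most 2.23 RPKM (Plvap). Some were thus as high as the lower of the 9 genes, of which Stra6, Tyrp1 and Pmel had means of 1.72, 1.10 and 1.03 RPKM. Of 8 genes of choroid and sclera, 3 were tested, 0 were called, and the summed RPKM was 3.87 to 4.20 in sham and 3.51 to 5.47 in ONC. Plvap, a protein of fenestrated vessels, had the highest mean of them, at 2.18 to 2.53 in sham and 2.03 to 2.07 in ONC (log2 FC -0.36, SE 0.20, edgeR adjusted p = 0.390), and Fmod, a proteoglycan of connective tissue, was at 0.788 to 1.08 in sham and 0.470 to 2.14 in ONC. The collagen gene Col1a1 stayed between 0.109 and 0.290. Of 4 genes of the ciliary epithelium, 3 were tested and 0 called, with a sum of 2.38 to 3.65 in sham and 2.68 to 5.08 in ONC. Among these, Optc was at 0.845 to 1.64 in sham and 1.18 to 3.05 in ONC, and Zic1 at 1.03 to 1.16 and 0.804 to 1.24. Neither list had a gene at an unadjusted p under 0.05 (0 of 3 each), and the DESeq2 Wald test called 0. Of 6 lens genes, 4 were tested and 0 called by edgeR, with 1 at an unadjusted p under 0.05, Bfsp1, which the DESeq2 Wald test called higher (log2 FC 1.81, adjusted p = 0.0932). Bfsp1 (0.139 ± 0.151 RPKM in sham and 0.520 ± 0.0517 in ONC, SD, n = 3) and Mip passed the RPKM filter through the ONC group alone and so had to be higher there, and the log2 FC of Bfsp1 was 1.80 in edgeR and 3.12 without sham replicate 1. The sum of the lens list was 0.915 to 1.97 RPKM in sham and 2.07 to 2.28 in ONC, and Lgsn and Bfsp2 had the highest means, with 0.172 to 0.789 and 0.346 to 0.516 over the 6 samples. Of the exon reads of Lgsn, 17.5% were uniquely mapped. None of these 3 lists had its highest summed RPKM in replicate 2 of both groups, nor did the retinoid, melanin or rod and cone lists. The summed RPKM of the pigment epithelium and Muller lists did. The pattern above was taken in CPM, which scales the samples differently, and sums in CPM were not computed. These 2 sums therefore do not show that the lists share that pattern. Gene by gene in CPM, it held for 4 of 14 tested pigment epithelium genes and 1 of 16 Muller genes. The sum of the 9 genes did too, but the pattern was noticed in these genes, so their sum is no separate result. That sum was mainly Rlbp1, which was highest in replicate 2 in RPKM (130.3 in sham and 136.0 in ONC) but not in CPM. No background share was computed for such sums. The median log2 FC was 0.09 for choroid and sclera and -0.13 for ciliary epithelium.

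The list of rods and cones had the highest summed RPKM, 25679 to 26657 in sham and 28106 to 29766 in ONC. All 16 were tested, 0 were called by edgeR or by DESeq2, 5 had an unadjusted p under 0.05, 4 passed the FDR threshold alone, all higher (Pde6b, Sag, Nr2e3 and Pde6c, beside 2.38% of tested genes), and the median log2 FC was 0.04. Gnat1, the rod transducin, had 5706 to 5911 RPKM in sham and 5896 to 6549 in ONC (log2 FC -0.03, SE 0.05, edgeR adjusted p = 0.820). Whether the differences between pools in Rpe65, Ttr, Stra6 and Pmel follow the amount of pigment epithelium carried along with the retina was not tested.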

How the data were processed

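RNA of 3 sham and 3 ONC samples was sequenced. Mapping by the authors used CLC Genomics Workbench with up to 2 mismatches, and the authors deposited 1 table per sample with unnormalized counts of total and unique reads, for the exons and for the whole of each gene, and RPKM values made from the total exon reads and all reads on genes. The labels name mm9, but gene positions in the tables match GRCm38, with 15412 of 29908 matched symbols having the same span as in RefSeq, and are given as in the tables.

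Genes past the RPKM filter were fitted with edgeR 4.0.16 (TMM, glmQLFit and glmQLFTest, condition as the only term) in R 4.3.3, and procedures were tested on simulated data. The SE is the log2 FC divided by the square root of F. Alternatives used DESeq2 1.42.0, limma 3.58.1, other scalings, filters and read classes, a replicate block and leaving out samples. Other steps used Python 3.11.15, numpy 2.4.6, pandas 2.3.3, scipy 1.17.1 and matplotlib 3.10.9.

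The 9 genes, the 8 lists and the tests were chosen with earlier results of these data known. Named are the 9 genes, up to 3 DEGs per list and direction, the 2 genes of highest mean RPKM per list, Tyr, Dct, Mertk and the 3 nearest profiles of Rpe65, Ttr and Rlbp1. Rgr, Slc16a8, Krt8, Efemp1, Enpp2, Oca2, Bfsp1, Mip, Col1a1 and the rod and cone genes past the FDR alone were named after their values were seen. Promoter sequences are from RefSeq, and that of Ttr is not reported here, nor are the values of 1 gene that the naming rule would have named. Protein sequences were not used here.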

Additional observations from a re-analysis of the deposited data

How the results depend on the processing

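None of the 9 genes was called under any of the alternatives except Tyrp1 without sham replicate 1, so the count called lower was 0 to 1 when single samples were left out, and the count called higher was 0 throughout. Differences near 0 changed sign. Lrat was above 0 with the scaling of RPKM (0.0841), limma with a pseudocount of 0.1 (0.1435) or 1 (0.0557), total gene reads (0.027), the replicate block (0.0293), both samples numbered 2 left out (0.305) and 4 of the single samples left out. Rlbp1 was above 0 with the sum of exon reads as the divisor (0.0245), the scaling of RPKM (0.1211), limma with a pseudocount of 0.1 (0.1219) or 1 (0.1211), no filter (0.0008), total gene reads (0.0412), both samples numbered 2 left out (0.0261) and 3 of the single samples left out. Ttr was above 0 with the scaling of RPKM (0.0564), limma (0.0465 and 0.0455) and 2 of the single samples left out, Rpe65 without sham replicate 2, and Best1 was below 0 without ONC replicate 1. Without single samples the log2 FC ranged from -0.6594 to 0.062 for Rpe65, -0.3191 to 0.2669 for Lrat, -0.0258 to 0.0116 for Rlbp1, -0.0076 to 0.8592 for Best1 and -0.2386 to 0.0616 for Ttr. The log2 ratio of Rlbp1 to Rpe65 ranged from -0.0133 to 0.5966 without single samples. Among listed genes, those called higher numbered 5 with the scaling of RPKM, 9 with no threshold of fold, 0 with both samples numbered 2 left out and 1 to 4 without single samples, and 1 was called lower with the scaling of RPKM, DESeq2, no filter, total gene reads and, at most, without single samples (0 to 1). That gene was Oca2 or Dct. The causes were not tested.

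Same-numbered samples are not known to be paired, and the fit with the replicate block gave 111 genes higher and 111 lower, beside 113 and 114 without it. It called none of the 9 genes, and the ratio kept its difference of 0.31 with an exact sign-flip p = 0.25, the smallest that 3 pairs allow, the ratio being higher in ONC in 3 of 3 pairs. The block on unique reads and the fit without both samples numbered 2 were chosen after seeing the data. Best1 had 5 to 25 reads per sample and Lrat at most 12 unique reads, and the within-group SD of their total reads was 2.60 and 4.45 times that of counting.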
